A study of Mus musculus with 4 samples.

Results

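CD8 T cells are the nuclei that the study annotated as its Cd8 cluster in single-nucleus ATAC-seq (snATAC-seq) of mouse inguinal white adipose tissue (iWAT). They number 4463 of 32552 nuclei. snATAC-seq cuts open chromatin with a transposase and reports, for each nucleus, which peaks of accessible DNA it opened. The mice were male C57BL/6, 8 weeks of age. The day 0 group (D0_RT) was kept at room temperature (22 °C). The cold groups D1_C, D3_C and D7_C spent 1, 3 or 7 days at 6.5 °C as the labels give it, and the sources differ slightly on this temperature. The groups D1_CL, D3_CL and D7_CL received 1 mg/kg of CL-316,243 (CL), a selective agonist of the β3-adrenergic receptor, for the same numbers of days. Each of the 7 groups held 3 mice, and nuclei came from the whole tissue without any prior cell isolation.

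CD8 T cells carry a coreceptor, a dimer of CD8α and CD8β or of CD8α alone, that binds MHC class I beside the T cell receptor and brings the kinase LCK to it. They recognise peptides shown by MHC class I and, once activated, can kill target cells with perforin and granzymes and secrete interferon gamma. In the thymus the choice between the CD8 and CD4 fates is set by RUNX3 and by the zinc finger factor ThPOK, the product of Zbtb7b, which promotes the CD4 fate. In white adipose tissue these cells are known chiefly for their accumulation in obesity.

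Nuclei of each mouse were summed into 1 library, and sums of fewer than 10 nuclei were left out. D3_CL mouse 2, with 9 nuclei, fell out by that rule, so that 20 libraries remained and D3_CL had n = 2. The smallest library kept, D1_CL mouse 3, had 33 nuclei, the next, D3_C mouse 1, had 43, and the largest had 349 (median 219). A count is 1 peak opened in 1 nucleus, since the matrix is binary, and a gene's count sums the peaks in its body and 2000 bases upstream. Libraries held 28677 to 617121 gene counts (median 248408.5). Levels are given as CPM, the counts of a gene relative to the TMM-scaled total of its library.

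Depth differed between groups. The median number of counts per CD8 nucleus was 1182, 894 and 1550 in the 3 day 0 mice and 695, 638 and 593 in the 3 D1_CL mice, so that every D1_CL mouse lay below every day 0 mouse. In the other groups it ran from 682 to 1653 over the libraries kept. Barcode sequences were also shared between mice. Of 28031 distinct sequences, 4218 occurred in more than 1 mouse, on 8739 nuclei, and each of the 4824 resulting pairs joined mice of the same treatment and the same replicate number at different days. No nucleus of a day 0 mouse was among them. Only 21.5% of the pairs lay in the same cluster, against 20.7% from the cluster sizes alone. Of the CD8 nuclei, 1180 (26.4%) carried a shared sequence and 156 shared it with another CD8 nucleus. The study ran its 3 batches of snATAC-seq independently. Which mice each batch held, and whether each day was a pool of its own, is not given in the sources used here, so day, batch and pool cannot be told apart.

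The cluster's name was checked against the 2 coreceptor genes. Cd8a, which encodes CD8α (chr6:71373427-71379173, plus strand, build mm10), had 60.4 to 131 CPM over the 20 CD8 libraries, with a median of 92.2. Its median was 0 CPM in B cell nuclei (highest mouse 5.93), 9.14 in myeloid nuclei, which are the macrophage and dendritic clusters summed (highest 52.5), and 1.73 in the non-immune adipocyte, progenitor and vascular nuclei (highest 12.7). CD8 libraries lay above all of these without overlap. Cd8b1, which encodes CD8β (chr6:71322788-71337494, plus strand), ranged from 60.4 to 188 CPM (median 145), against medians of 0.923, 18.2 and 2.38 CPM in the same 3 kinds of nuclei. Against CD4 T cell nuclei, with medians of 13.2 CPM for Cd8a and 40.1 CPM for Cd8b1, both genes were higher in CD8 nuclei of all 20 mice, by 2.68 ± 0.85 and 1.70 ± 0.73 on the log2 scale (mean ± SD). Against the remaining T cell cluster, of 1610 nuclei and named only as T cells, they were higher in all 20 mice by 2.41 ± 1.40 and 2.00 ± 0.82. These differences and all others between kinds of nuclei are descriptions without a test, because the clusters were made from the same matrix.

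Single nuclei are sparse. A count at Cd8a was present in 497 of 4463 CD8 nuclei, or 11.1% (exact Clopper-Pearson 95% interval 10.2 to 12.1%), and in 0.0919% of B cell nuclei at median depths of 1035 and 974 counts. The share was 1.28% in CD4 nuclei, 2.61% in the remaining T cell cluster, 2.10% in myeloid and 0.44% in non-immune nuclei. After thinning each nucleus to 500 counts, the CD8 share was 4.01% of 3862 nuclei, and 0.546% of CD4 and 0.0483% of B cell nuclei had a count. Cd8b1 had a count in 15.6% of CD8, 3.90% of CD4 and 0.175% of B cell nuclei. CD8α homodimers mark a subset of dendritic cells, and Cd8a stood at 12.6 CPM (exact interval 6.87 to 21.1) in the pooled dendritic cluster and at 15.7 CPM (10.2 to 22.9) in the macrophage cluster, which overlap. All intervals cover counting error only.

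**Figure D1:**
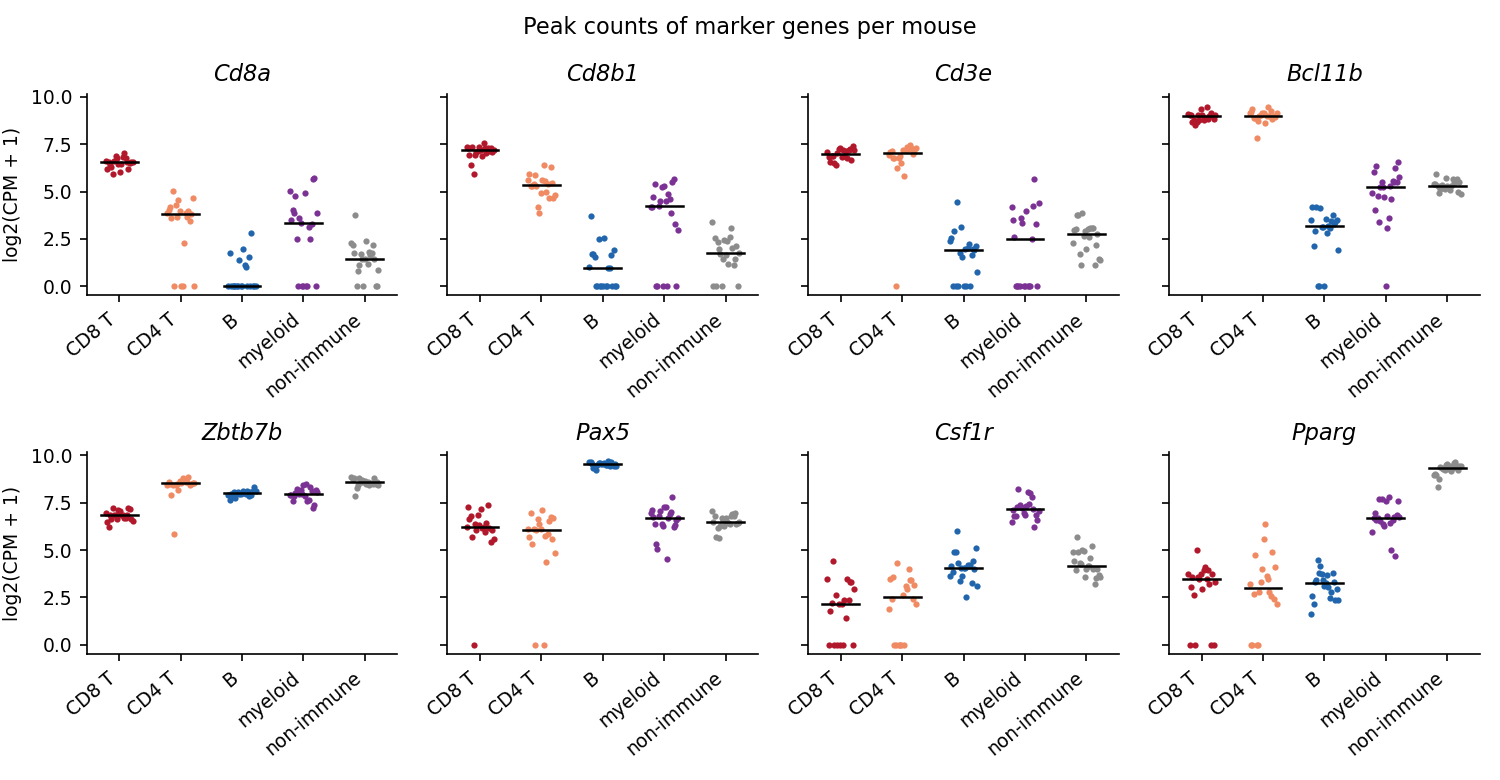
Accessibility of 8 marker genes per mouse, as log2(CPM + 1) of summed peak counts on the vertical axis, in CD8 T, CD4 T, B, myeloid and non-immune nuclei. Each point is 1 mouse and each line a median; Cd8a and Cd8b1 are highest in CD8 nuclei, Zbtb7b is lowest there, and Cd3e and Bcl11b are shared with CD4 T nuclei.

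The Cd8b1 and Cd8a genes lie 35933 bases apart in the same orientation. Between 20000 bases before the first and 20000 bases after the second, the authors called 23 peaks. Of these 10 passed the filter on low counts, and all 10 had their highest mean in CD8 nuclei. That filter ran over CD8, B cell, myeloid and non-immune libraries. Peaks nearly closed in the last 3 could pass only through CD8 libraries, so a higher level than there was partly set by the filter. CD4 and remaining T cell libraries did not enter it, so peaks open mainly there could drop out. A gene or peak is counted as higher here when it was at least 2-fold higher on average and higher in every mouse, and as lower likewise. By that count 7 of the 10 peaks were higher than in B cell, myeloid and non-immune nuclei, and all 7 were higher than in CD4 nuclei too, 6 of them also than in the remaining T cell cluster. Of all 16421 peaks tested, 4.18% were higher than in all 3 kinds, 0.609% than in CD4 nuclei, 0.323% than in all 4, 0.585% than in the remaining T cell cluster and 0.152% than in all 5. The remaining 3 were higher in 19 of 20 mice, with 1 CD8 library at 0 in each. Peak coordinates are those of the deposited peak list.

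The peak of the region with the largest differences from B cell, myeloid and non-immune nuclei, chr6:71342733-71343346, lies between the genes, at −30388 bases from the Cd8a start. It ranged from 81.2 to 203 CPM over the CD8 libraries (median 122). Mean levels were 0.834 CPM in B cell, 6.33 in myeloid, 3.86 in non-immune and 11.3 in CD4 nuclei. No mouse reached more than 35.8 CPM in any of these 4 kinds, so the ranges did not overlap. Its neighbour chr6:71341169-71341611 had 54.7 to 123 CPM (median 89.4), with means of 0.753 CPM in B cell and 9.59 CPM in CD4 nuclei. A further intergenic peak, chr6:71353489-71354111, 19627 bases upstream of Cd8a, had 39.7 to 147 CPM (median 101) and means of 0.814 and 6.20 CPM in B cell and CD4 nuclei. Its difference from CD4 nuclei, 2.92 on the log2 scale, was the largest in the region, next to 2.85 for the first of these peaks. Peaks at the start sites were also higher than in CD4 nuclei. The Cd8a start peak chr6:71373219-71373707 had 55.4 to 122 CPM in CD8 libraries and was 2.68 ± 0.70 higher than in CD4 nuclei on the log2 scale. The Cd8b1 start peak chr6:71322228-71323093 had 59.6 to 162 CPM and was 1.41 ± 0.73 higher. It is shared with Smyd1, whose start lies 555 bases from that of Cd8b1. In myeloid nuclei these 2 start peaks had mean levels of 18.5 and 17.4 CPM, the highest of any kind outside T cells.

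Sequences of 3 intergenic stretches and of the Cd8a start are given because these peaks had the largest differences from CD4 T cells among the peaks of the region that were higher in all 20 mice. They are read from the mm10 (GRCm38) genome on the plus strand, leave out annotated exons, and have the motifs that were searched for in capitals. The motifs, counted on both strands, were AGGAAGT for ETS factors, TGTGGTT for RUNX, ATCAAAG for TCF7 and LEF1, CAGGTG and CAGCTG for E-box proteins and GGTGTGA for T-box factors. A match is a description of the letters only.
chr6:71341240-71341539: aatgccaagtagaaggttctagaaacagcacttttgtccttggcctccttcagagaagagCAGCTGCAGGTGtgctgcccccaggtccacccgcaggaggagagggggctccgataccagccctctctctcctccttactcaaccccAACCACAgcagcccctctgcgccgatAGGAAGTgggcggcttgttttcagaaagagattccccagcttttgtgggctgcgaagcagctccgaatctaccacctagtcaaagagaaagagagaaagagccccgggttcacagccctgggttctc
chr6:71342890-71343189: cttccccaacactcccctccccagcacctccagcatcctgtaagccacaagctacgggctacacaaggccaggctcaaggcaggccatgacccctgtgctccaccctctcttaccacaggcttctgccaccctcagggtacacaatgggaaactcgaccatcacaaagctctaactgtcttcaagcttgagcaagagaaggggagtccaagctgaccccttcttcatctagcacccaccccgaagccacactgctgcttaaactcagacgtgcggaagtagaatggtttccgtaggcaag
chr6:71353650-71353949: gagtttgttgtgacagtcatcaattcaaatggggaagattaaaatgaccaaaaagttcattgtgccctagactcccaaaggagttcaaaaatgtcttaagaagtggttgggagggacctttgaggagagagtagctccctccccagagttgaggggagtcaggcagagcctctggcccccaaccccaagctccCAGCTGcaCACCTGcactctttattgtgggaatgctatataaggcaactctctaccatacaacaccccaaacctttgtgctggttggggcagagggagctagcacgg
chr6:71373285-71373426: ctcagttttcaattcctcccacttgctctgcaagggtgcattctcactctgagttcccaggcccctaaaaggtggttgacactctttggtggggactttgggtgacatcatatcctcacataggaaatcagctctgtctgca
The first stretch holds 4 matches, which are CAGCTG from base 61, CAGGTG from base 67, the RUNX letters from base 148 and the ETS letters from base 174, counted from its first base. The most accessible one, chr6:71342890-71343189, holds 0 matches. The third holds CAGCTG from base 194 and CAGGTG from base 202. In the 142 bases before the Cd8a start there were 0 matches.

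**Figure D2:**
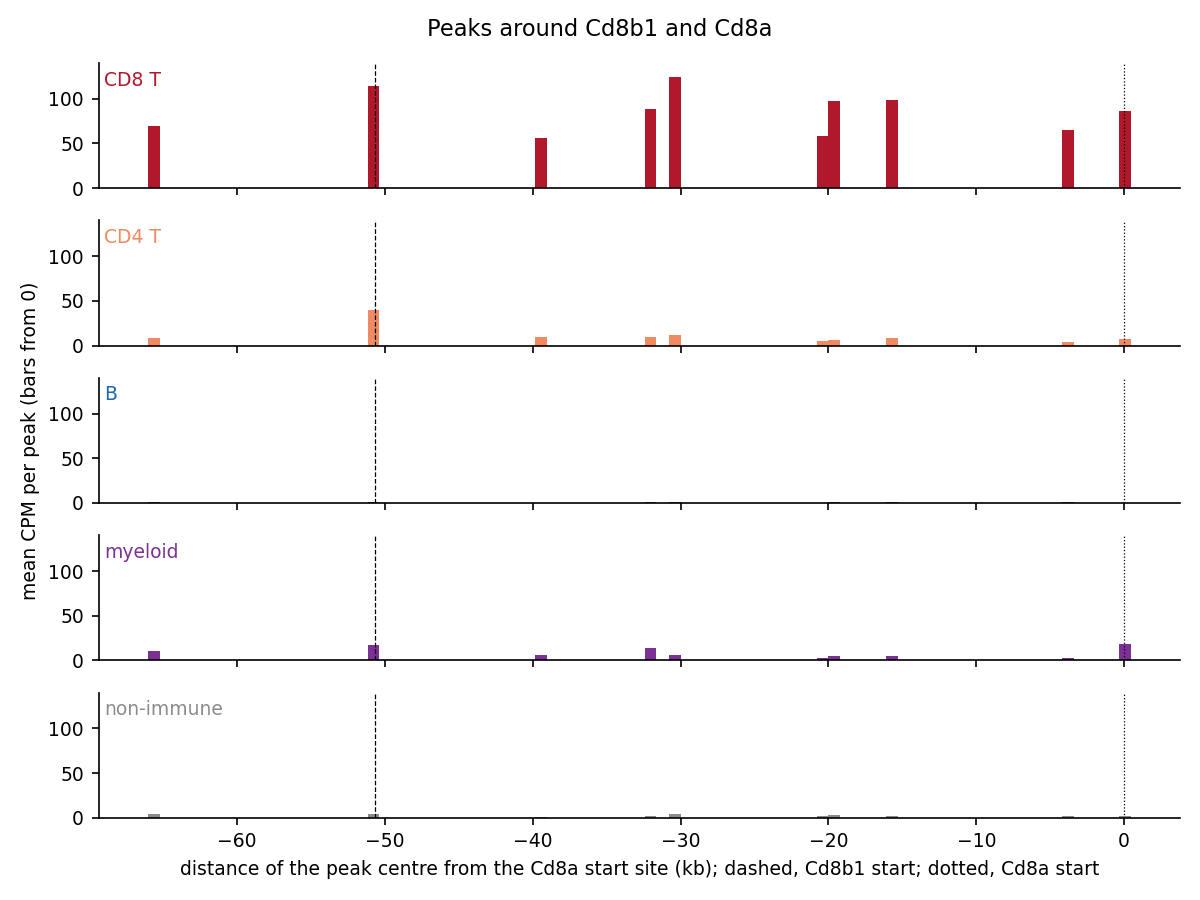
Mean CPM over mice (vertical axis) of the 10 peaks past the filter around Cd8b1 and Cd8a, by the distance of the peak centre from the Cd8a start in kb, in 5 kinds of nuclei. Bars have a fixed width that is not the peak length; CD8 T nuclei reach 124 CPM at the tallest intergenic peak, where CD4 T nuclei have 11.3 CPM.

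The T cell receptor machinery was open in CD8 nuclei as in other T cells. Of 20 listed genes of the receptor and its signalling, 15 were counted as higher than in B cell nuclei, 18 than in myeloid and all 20 than in non-immune nuclei, where 4.94%, 4.06% and 8.02% of the 12395 genes tested were. The median log2 differences of the list were 2.44, 2.50 and 3.07, and those over all genes were −0.08, 0.07 and −0.03. Cd3e, a signalling chain of the receptor complex, had 82.3 to 167 CPM (median 126) in CD8 libraries, against medians of 2.77 CPM in B cell, 4.62 in myeloid and 5.69 in non-immune nuclei. Its highest B cell mouse had 21.2 CPM and its highest myeloid mouse 49.9, so that neither range reached the CD8 range. Cd3d behaved alike, with 233 to 446 CPM (median 278), although B cell nuclei had up to 122 CPM. Prkcq, the protein kinase C isoform of the T cell synapse, had 604 to 976 CPM and was 3.16 higher than in B cell nuclei. Lck missed the count against B cells, at 281 against 149 mean CPM (0.87 on the log2 scale, higher in 19 of 20 mice). None of the 20 genes was counted as higher or lower than in CD4 nuclei, where 0.541% and 0.0968% of all genes were.

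Some transcription factors of the T lineage were more open than in B cells and others were not. Bcl11b, a zinc finger factor needed for T cell commitment, had 363 to 696 CPM (median 507) in CD8 libraries and a median of 8.17 CPM in B cell nuclei, whose highest mouse had 17.2. Its mean difference of 5.30 ± 0.56 from B cells on the log2 scale was the largest of all genes counted. A count at Bcl11b was present in 40.3% of CD8 and 39.0% of CD4 nuclei, against 0.836% of B cell nuclei. The HMG box factors Tcf7 and Lef1, kept high in naive and memory T cells, had medians of 434 and 835 CPM in CD8 libraries. Against B cell nuclei they were 3.34 ± 0.56 and 2.34 ± 0.34 higher, and against CD4 nuclei they differed by 0.01 ± 0.19 and −0.01 ± 0.13. Over all 14 listed lineage factors, 6 were counted as higher than in B cell, 9 than in myeloid and 12 than in non-immune nuclei, where 4.94%, 4.06% and 8.02% of all genes were. The median difference of the list from B cells was 0.68. Ets1, at 838 CPM in CD8 and 911 CPM in B cell nuclei, was among those that were not.

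Runx3 and Zbtb7b, the factors of the CD4/CD8 choice, were compared with CD4 nuclei. Runx3 had 158 to 351 CPM (median 261) in CD8 libraries and a median of 169 CPM in CD4 libraries (0 to 262), a mean log2 difference of 0.83 ± 1.24 with CD8 higher in 19 of 20 mice and overlapping ranges. Zbtb7b had 74.0 to 151 CPM (median 114) in CD8 and 57.3 to 470 CPM (median 366) in CD4 libraries. It was lower in CD8 nuclei in 19 of 20 mice, by 1.52 ± 0.73 on the log2 scale, and lower than in B cell and non-immune nuclei in all 20 mice, with medians there of 255 and 386 CPM. The lowest CD4 library lay below the CD8 range and the other CD4 libraries above it. The Cd4 gene itself did not pass the filter. It had 151 counts in all CD8 libraries together and a median of 28.5 CPM there, against 82.3 CPM in CD4 nuclei, and CD8 libraries were lower in every mouse. A count at Cd4 was found in 3.27% of CD8 nuclei (exact interval 2.77 to 3.84%), 8.42% of CD4, 2.99% of myeloid and 0.192% of B cell nuclei.

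Genes of naive and central memory T cells were open. Il7r, the receptor chain for the survival cytokine IL-7, had 90.7 to 242 CPM (median 166) and was 2.86 ± 0.51 higher than in B cells. Ccr7, which guides cells into lymph nodes, and Klf2, a factor that keeps T cells quiescent, differed from B cell nuclei by 0.32 and −0.05. Of the 12 genes listed, 3 were counted as higher than in B cell, 6 than in myeloid and 8 than in non-immune nuclei, again beside 4.94%, 4.06% and 8.02% of all genes. Igfbp4, of an insulin-like growth factor binding protein, was counted as lower than in non-immune nuclei, as were 20.9% of all genes, and 0 of the list differed from CD4 nuclei by that count.

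Some effector genes were more open in CD8 than in CD4 nuclei. Of 21 listed effector and cytotoxic genes, 10 passed the filter, and 5 of these (Prf1, Nkg7, Eomes, Klrd1 and Il2rb) were counted as higher than each of B cell, myeloid and non-immune nuclei. A gene nearly closed in those kinds passes the filter only through CD8 libraries, so this count was partly set by it. The last 4 of the 5 were counted as higher than in CD4 nuclei too, where 0.541% of all genes were, and the other 6 genes tested were not. Against the remaining T cell cluster Nkg7 and Klrd1 were counted as higher, where 0.42% of all genes were. Eomes was 2.18 ± 1.35 higher there, in 19 of 20 mice, and Il2rb did not differ in one direction (−0.16 ± 0.42, higher in 7 of 20 mice). Nkg7, which encodes a granule membrane protein of cytotoxic cells, had 30.2 to 125 CPM (median 65.8), with a median of 4.73 CPM and a highest value of 19.6 CPM in CD4 libraries. The ranges did not overlap, and the mean log2 difference of 2.91 ± 0.73 was the largest from CD4 nuclei among the genes described here. A count at Nkg7 was present in 8.13% of CD8, 0.615% of CD4, 0.167% of B cell and 0.262% of myeloid nuclei. Eomes, a T-box factor of memory CD8 T cells, had 38.6 to 144 CPM (median 83.5) against a median of 17.3 CPM in CD4 libraries, and was higher in all 20 mice by 2.07 ± 1.14. Tbx21, which encodes the related factor T-bet, had 19.0 to 72.0 CPM (median 31.8) against 10.2 CPM in CD4 libraries, higher in 18 of 20 mice. It differed from B cell nuclei (median 25.9 CPM) by only 0.56 ± 0.69. Il2rb, a receptor chain for IL-2 and IL-15, had 60.4 to 124 CPM (median 104) and 22.6 CPM in CD4 libraries. Prf1, the gene of perforin, had 57.6 to 128 CPM (median 97.2), which overlapped the CD4 libraries (median 59.0, highest 90.6).

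Secreted products were sparse. The 11 effector genes under the filter included Gzmb, a granzyme that enters target cells, with 55 counts in all CD8 libraries, Ccl5, a chemokine, with 52, and Ifng with 106. Their mean levels in CD8 and CD4 libraries were 10.4 against 1.33 CPM, 9.67 against 0.39 CPM, and 21.03 against 3.22 CPM, and CD8 was the higher in 15, 17 and 18 of 20 mice. Gzmk had 159 counts and a mean of 30.6 CPM against 21.01 in CD4 libraries. Fasl, the ligand of the death receptor FAS, went the other way, at 30.9 CPM in CD8 and 54.8 CPM in CD4 libraries. Klrg1, a receptor of terminal effector cells, had only 4 counts. Cx3cr1 was as open in the other kinds as in CD8 nuclei, with mean levels of 424 CPM in CD8, 493 in B cell and 461 in myeloid nuclei.

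Genes of tissue residency were mixed. Itgae, the αE integrin CD103, had 90.7 to 329 CPM (median 236) and was higher than in CD4 libraries in all 20 mice, by 1.19 ± 0.39. Cxcr6, a chemokine receptor of resident T cells, had 28.8 to 117 CPM (median 64.0) and was 1.81 ± 1.08 higher than in CD4 libraries, again in all 20 mice. Against the remaining T cell cluster these 2 genes differed by 0.51 ± 0.61 and 0.44 ± 0.67, each higher in 16 of 20 mice, and 0 genes of the list were counted. The 10 genes that had a peak summed to a median of 887 CPM in CD8, 867 CPM in that cluster and 655 CPM in CD4 libraries. Of 9 tested genes on that list, 3 were counted as higher than in B cell, 2 than in myeloid and 5 than in non-immune nuclei, against 4.94%, 4.06% and 8.02% of all genes. Itga1, an integrin chain, was counted as lower than in non-immune nuclei. Of 9 tested genes listed with the inhibitory receptors, 2 were counted as higher and 0 as lower than in CD4 nuclei, beside 0.541% and 0.0968% of all genes. They were Cd160, which binds HVEM, by 1.60 ± 0.85, and Nr4a2, a nuclear receptor, by 1.48 ± 0.90, and the median of the list was 0.27. Pdcd1, which encodes PD-1, was under the filter with 66 counts and a mean of 11.03 CPM, against 16.3 CPM in CD4 libraries.

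Adrenergic and glucocorticoid genes were described because CL activates an adrenergic receptor. Adrb3, the receptor that CL activates in adipocytes, had 14 counts over all CD8 libraries and a median of 0 CPM, against a mean of 153 CPM in non-immune nuclei. Nr3c1, the glucocorticoid receptor, was lower in CD8 than in B cell and in non-immune nuclei in all 20 mice, with mean levels of 94.7, 183 and 198 CPM. Of 13 tested genes of this list, 0 were counted in either direction against B cell or myeloid nuclei. Against non-immune nuclei 3 were counted as higher (Grk2, Arrb2 and Pde4b) and 4 as lower (Adrb1, Adrb3, Nr3c1 and Tsc22d3), where 8.02% and 20.9% of all genes were, and the median difference of the list was −0.35.

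Markers of other cell types were summed by list in CD8 libraries. The 12 B cell genes summed to a median of 479 CPM (321 to 812 CPM), against 3713 CPM in B cell nuclei, and all 12 were counted as lower than there, where 5.32% of all genes were. The most abundant, Ebf1, had a mean of 137 CPM in CD8 and 1151 CPM in B cell nuclei. The 12 myeloid genes summed to 361 CPM against 1390 CPM in myeloid nuclei. Spi1 led them with 91.9 CPM, while Csf1r had a median of 3.49 CPM against 142. Of the 9 adipocyte genes, all were counted as lower than in non-immune nuclei, where 20.9% of genes were, and they summed to 329 against 2865 CPM. Pparg had a median of 10.1 CPM in CD8 and 641 CPM in non-immune nuclei. Adipoq was less distinct, with a count in 8.94% of CD8, 8.85% of CD4, 4.92% of B cell and 24.9% of non-immune nuclei. The 5 natural killer genes that had a peak summed to 139 CPM (93.8 to 222) and the 7 lymph node stroma genes to 10.8 CPM, with 1 of the latter at 0 in all libraries. The 8 stroma genes summed to 316 against 429 CPM in non-immune nuclei, with Dpp4, which T cells also use, at 240 CPM in CD8 libraries. The 7 endothelial genes did not separate the kinds, at 445 against 443 CPM, and Pecam1 made up 413 CPM of them in CD8 libraries. Doublets had been removed by the authors, and what part other nuclei have in these values was not tested.

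Over all genes, 612 (4.94%) were at least 2-fold higher and 659 (5.32%) lower in CD8 than in B cell nuclei, in the mean and with the same direction in every mouse. Against myeloid nuclei the numbers were 503 (4.06%) and 703 (5.67%), and against non-immune nuclei 994 (8.02%) and 2591 (20.9%). The largest differences above B cells were at Bcl11b, at Cd226 (an adhesion receptor of T and NK cells, 4.71 on the log2 scale) and at Als2cl (4.66). Those below were at Rasgrp3 (−3.79), Cd180 (−3.77), which encodes a B cell homologue of a Toll-like receptor, and Tmem72 (−3.71). Above myeloid nuclei, Il2rb (3.74), Bcl11b (3.68) and Cd3e (3.67) led, and Grk3 (−4.72), Zfp366 (−4.58), a dendritic cell factor, and Dscaml1 (−4.34) lay lowest. Above non-immune nuclei they included Cd3d (4.25) and Cd226 (4.20). The lowest were Pparg (−5.57), the adipocyte master regulator, Lpl (−5.34), the lipoprotein lipase, and Plin4 (−5.28), a lipid droplet coat protein.

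Against all 3 kinds at once, 190 genes (1.53%) were counted as higher. Of these, 14 (0.113% of all genes) were also counted as higher than in CD4 nuclei. Besides Cd8a, Cd8b1, Nkg7, Il2rb, Eomes and Klrd1, a receptor chain of NK and CD8 T cells, they included Ctsw, a cathepsin of cytotoxic lymphocytes, with 31.0 to 151 CPM and a mean of 65.0 against 19.1 CPM in CD4 nuclei. Il18rap, a chain of the IL-18 receptor, had 28.8 to 212 CPM and was 1.55 higher. Bend4 (222 against 64.3 mean CPM), Fyco1 (310 against 95.3) and Baiap3 (79.1 against 19.4) showed differences of 1.87, 1.86 and 1.89. Fam241a (1.37), Gab3 (1.06) and Unkl (1.04) were closest to the limit of 1. Of the 14, 6 were also counted as higher than in the remaining T cell cluster (0.0484% of all genes), namely Cd8a, Cd8b1, Nkg7, Klrd1, Bend4 and Fam241a. The other 8 were not, and Il2rb had a higher mean there, at 116 against 99.8 CPM. The 14 genes were chosen by these values, and no test was made.

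**Figure D3:**
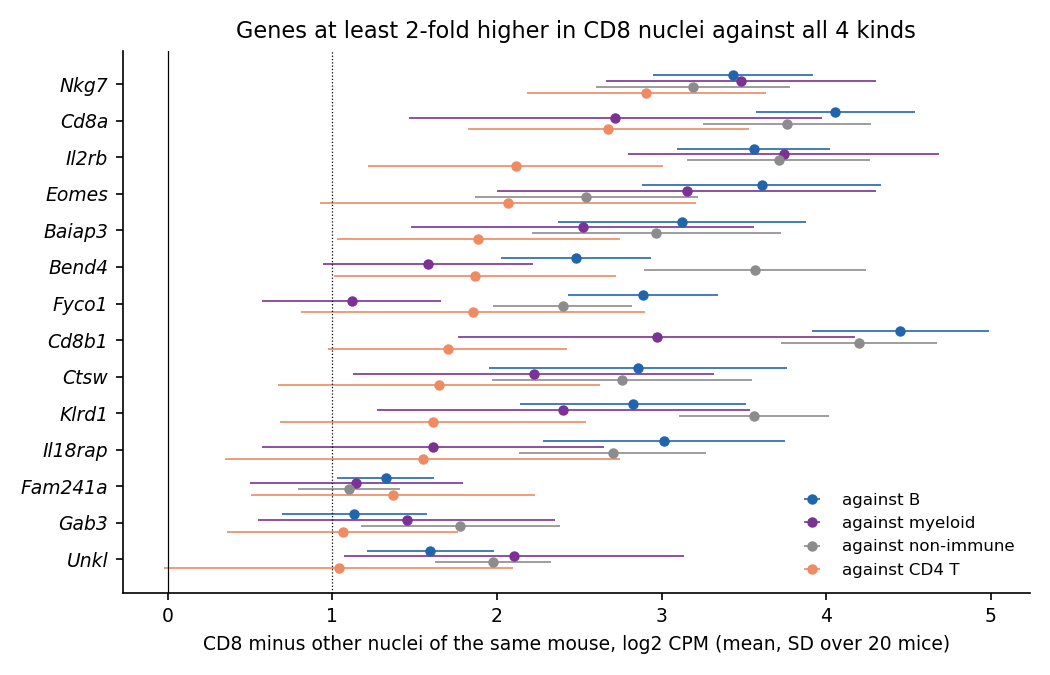
Difference in log2 CPM between CD8 nuclei and other nuclei of the same mouse (horizontal axis, mean with SD over 20 mice) for the 14 genes at least 2-fold higher on average, and higher in every mouse, than B cell, myeloid, non-immune and CD4 nuclei. The remaining T cell cluster is not plotted. The dotted line marks 2-fold; differences from CD4 T nuclei run from 1.04 at Unkl to 2.91 at Nkg7.

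Single peaks were counted in the same way. Of 16421 peaks past the filter, 1166 (7.1%) were higher and 2087 (12.7%) lower than in B cell nuclei by the same count. Against myeloid nuclei 1215 (7.4%) were higher and 534 (3.25%) lower, and against non-immune nuclei 2258 (13.8%) and 2232 (13.6%). The balance thus differed from that of genes, more of which were lower than higher against both of these kinds. All 3 comparisons were met by 686 peaks (4.18%), called CD8-high here, and 53 of these were also counted as higher than in CD4 nuclei, 25 of them also than in the remaining T cell cluster. The CD8-high peaks lay far from gene starts. Within 2000 bases of a start were 8.89% of them, against 48.7% of all peaks, and the median distance was 29700 against 2535 bases. They were shorter, with a median of 791 against 1043 bases, and had a median GC content of 48.2% against 56.3%. Among peaks beyond 2000 bases only, the GC medians were 48.0% for 625 CD8-high and 50.3% for all 8418 peaks. CD8-high peaks were chosen by their values, and those nearly closed in the other kinds passed the filter only through CD8 libraries. The peaks they are set against include peaks shared by several kinds. Whether peaks high in another kind differ in the same way was not tested.

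Of the genes nearest to CD8-high peaks, 4933412E24Rik had 8 of its 9 tested peaks among them, as many as Prkcq. All 5 tested peaks nearest to Thy1, a surface glycoprotein of T cells, were CD8-high, and so were 4 of 4 at Cd226, 3 of 3 at Bcl11b, 8 of 13 at Prkcq, 4 of 8 at Lef1 and 4 of 7 at Il7r. Ets1 had 5 of 26. Most of the CD8-high peaks were open in CD4 nuclei too, with median levels of 86.7 CPM in CD8 and 72.5 CPM in CD4 libraries. For the 53 that were also above CD4 nuclei, these medians were 83.9 and 18.1 CPM.

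The largest of the CD8-high peaks by the smallest of their 3 differences, chr11:87935211-87936199, lies outside any gene, 14738 bases from the nearest start. It had 50.7 to 174 CPM (median 131) in CD8 libraries, with means of 1.21 CPM in B cell, 5.22 in myeloid and 4.57 in non-immune nuclei. CD4 nuclei had 104 CPM, and the difference from them was 0.42 ± 0.93. The next, chr3:103385364-103386079 and chr7:119835851-119836862, had medians of 171 and 166 CPM and were again shared with CD4 nuclei, at means of 130 and 140 CPM. The fourth was the intergenic Cd8 peak described above, and the fifth, chr12:25958344-25959303, had 118 CPM in CD8 and a mean of 71.4 CPM in CD4 libraries. The peak at the Nkg7 start, chr7:43436360-43437263, had 40.9 to 174 CPM (median 92.4) in CD8 libraries and no more than 28.8 CPM in any CD4 library. A peak 4038 bases from the Itgae start, chr11:73094219-73095024, had 74.2 to 140 CPM against a mean of 12.9 CPM in CD4 libraries. These last 2 sets of ranges did not overlap.

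Sequences are given to compare a peak shared by both kinds of T cell and the Nkg7 peak of CD8 nuclei, read and marked as before.
chr11:87935555-87935854: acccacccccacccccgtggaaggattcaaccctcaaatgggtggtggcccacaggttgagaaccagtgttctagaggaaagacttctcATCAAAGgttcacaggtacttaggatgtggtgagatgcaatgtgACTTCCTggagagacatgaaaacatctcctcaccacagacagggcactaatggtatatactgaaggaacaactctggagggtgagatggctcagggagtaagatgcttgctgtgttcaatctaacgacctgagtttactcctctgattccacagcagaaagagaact
chr7:43436662-43436961: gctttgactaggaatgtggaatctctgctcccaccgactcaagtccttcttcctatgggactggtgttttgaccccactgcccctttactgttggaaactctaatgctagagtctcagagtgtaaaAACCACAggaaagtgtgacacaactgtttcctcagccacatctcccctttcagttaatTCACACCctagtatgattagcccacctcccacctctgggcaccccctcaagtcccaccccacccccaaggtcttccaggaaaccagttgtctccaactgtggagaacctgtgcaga
The shared peak holds the TCF7 and LEF1 letters from base 90 and the ETS letters from base 134. The Nkg7 stretch lies before the gene's start and holds the RUNX letters from base 127 and the T-box letters from base 185.

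Motifs were counted in the central 300 bases of every peak, on both strands. The RUNX letters TGTGGTT were in 194 of 686 CD8-high peaks, or 28.3% (exact interval 24.9 to 31.8%), and in 8.86% of all 16421 peaks. ATCAAAG of TCF7 and LEF1 was in 10.1% against 3.03%, AGATAAG of GATA factors in 4.81% against 2.26%, and ACANNNTGT of the NR3C receptors in 13.9% against 7.08%. AGGAAGT of ETS factors was in 23.5% against 16.1%, CAGGTG in 27.0% against 20.7%, and GGTGTGA of T-box factors in 6.85% against 4.06%. CCCNNGGGA of EBF was rarer, at 2.48% against 8.01%, while GGGANTTCC of NF-kB was in 9 peaks, or 1.31% (exact interval 0.602 to 2.48%), an interval that holds the 2.35% of all peaks. The ETS letters lie within the longer GAGGAAGT of PU.1, found in 6.85% against 6.29%, so these counts overlap. Part of these gaps followed the distance from gene starts. Among peaks beyond 2000 bases, the ETS shares were 24% and 23.5%, those of T-box 6.72% and 5.18%, those of GATA 4.8% and 3.54% and those of NR3C 13.9% and 10.8%, while the RUNX shares were 28.8% and 13.8% and those of TCF7 and LEF1 10.1% and 4.37%. In the 53 peaks that were also above CD4 nuclei, the RUNX letters were in 32.1%.

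The study's treatments were then compared in the share of CD8 nuclei. As a share of all nuclei of a mouse, they made up 16.7%, 14.1% and 14.5% at day 0. The 9 cold mice ranged from 2.77 to 19.3% (median 14.0%) and the 9 CL mice from 0.725 to 22.3% (median 14.5%). The lowest values were those of D3_CL mouse 2, D3_C mouse 1 and D1_CL mouse 3, the libraries with the fewest CD8 nuclei, and both treated sets spread below and above day 0. The means were 15.1 ± 1.42%, 13.7 ± 4.69% and 12.4 ± 6.71% (SD). The differences from day 0 were −1.37 percentage points for cold (p = 0.614) and −2.69 for CL (p = 0.577, two-sided exact permutation test over 220 arrangements). Without D3_C mouse 1 the first was −0.0039, and without D3_CL mouse 2 or D1_CL mouse 3 the second was −1.23 or −1.51. A share falls also when other nuclei rise or are recovered better, and these cannot be told apart from fewer CD8 T cells.

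Within T cells the shares were steadier. CD8 nuclei were 44.0%, 39.6% and 45.1% of the T cell nuclei at day 0. Cold mice had 41.3 to 50.1% and CL mice 40.1 to 50.3%, with means of 42.9 ± 2.89%, 45.7 ± 3.87% and 46.0 ± 4.13%. In D1_CL mouse 3 and D3_C mouse 1, with few CD8 nuclei, the share of T cell nuclei was 50.0% and 49.4%, and in D3_CL mouse 2, with 9, it was 42.9%. The difference was 2.83 points for cold (p = 0.305) and 3.14 for CL (p = 0.264), again by exact permutation. Counting only nuclei of at least 1000 counts, the difference for CL reversed to −2.46 points. Of the lymphocyte nuclei, T and B cells together, CD8 nuclei were 21.1 ± 0.893% at day 0 and 19.4% in both treated sets. Over the 9 tests, with cold against CL included, adjusted p-values ran from 0.828 to 0.998. Single days were not tested, since 3 mice against 3 cannot reach the threshold of 0.05 in such a test.

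**Figure D4:**
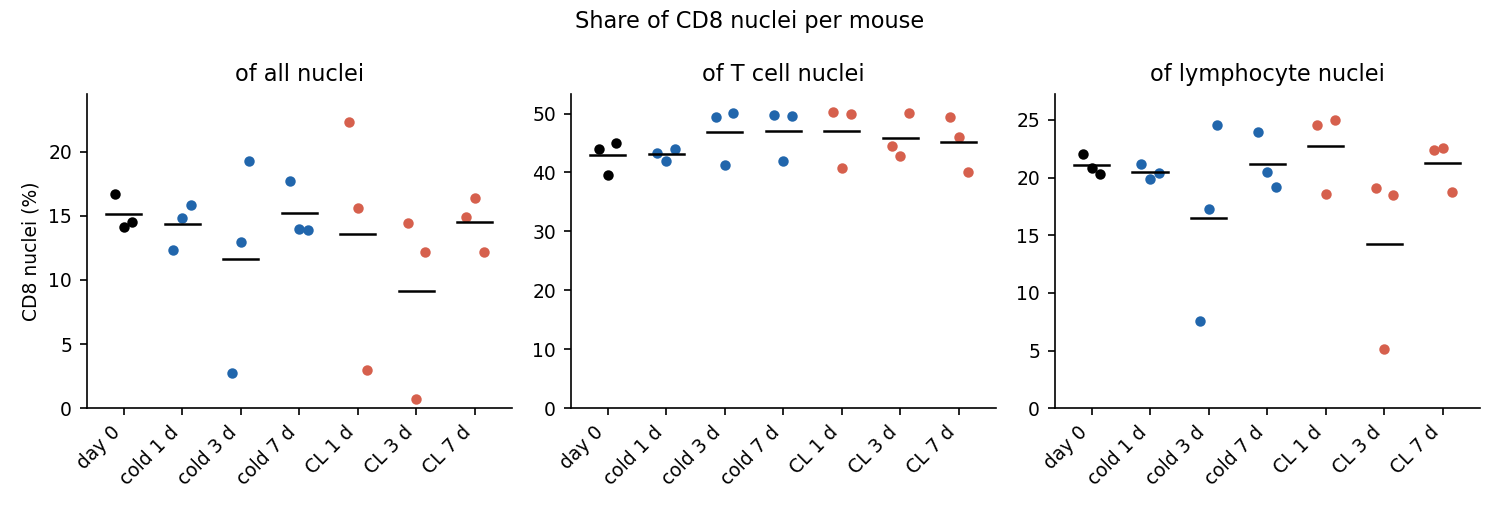
Share of CD8 nuclei per mouse in percent (vertical axis) of all nuclei, of T cell nuclei and of lymphocyte nuclei, by group. Points are mice and lines are group means of 3; the shares of all nuclei spread from 0.725 to 22.3% and those of T cell nuclei from 39.6 to 50.3%.

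Accessibility of genes in CD8 nuclei was next compared between groups with edgeR's quasi-likelihood test over 10375 genes, with Benjamini-Hochberg adjustment. The question was which genes opened or closed with cold or CL. Few did. On the scale used so far, Cd8a had 98.6, 71.1 and 93.1 CPM at day 0 and 60.4 to 131 CPM in the treated libraries, and Cd8b1 had 160, 156 and 122 CPM and 60.4 to 188 CPM. Treated libraries spread around the day 0 values, and the coreceptor genes did not pass, with log2 fold changes of 0.23 for Cd8a and 0.02 for Cd8b1 over the cold groups (adjusted p = 0.827 and 0.992 by edgeR) and −0.14 and −0.10 over the CL groups (adjusted p = 0.831 and 0.853). Against day 0, 4 genes (0.0386%) rose at D1_C and 1 (0.00964%) at D7_C. At D1_CL 15 (0.145%) changed, 8 up and 7 down, and at D7_CL 5 (0.0482%) rose. At D3_C and D3_CL 0 genes passed (0.0% each), and 0 by DESeq2. The smallest p there were those of Tm6sf1 at D3_C (−0.71, adjusted p = 0.246) and Hspa8, a heat shock cognate chaperone, at D3_CL (1.19, adjusted p = 0.207, both by edgeR). At D3_C and D3_CL 552 and 612 genes, or 5.32% and 5.90%, had an unadjusted p under 0.05 (edgeR). These shares are close to what such a threshold gives without any change. In the other contrasts against day 0 the share ran from 5.51% at D1_C to 11.9% at D1_CL. Over the mean of the 3 days, 3 genes (0.0289%) rose with cold and 12 (0.116%) with CL. An F test over all 6 treated groups passed 13 genes (0.125%). All comparisons share the day 0 mice. CPM from here on are scaled among the 20 CD8 libraries only.

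Sfi1, the gene of a centrosome protein, passed in most of them. It had 938, 1193 and 1029 CPM at day 0. In the D1_CL mice it had 1951, 1820 and 1858 CPM, and in the D7_CL mice 1804, 1784 and 2129 CPM, all above every day 0 mouse. The 2 D3_CL libraries, at 1233 and 1153 CPM, did not stand apart. Cold mice were between, from 1136 to 1659 CPM, with 1 of 9 below the highest day 0 value. The log2 fold changes were 0.87 ± 0.09 (SE) at D1_CL (adjusted p = 1.46e-16), 0.85 ± 0.08 at D7_CL (adjusted p = 9.49e-19) and 0.44 ± 0.07 over the cold groups (adjusted p = 7.25e-06, all by edgeR). The same fit gave 0.64 over the CL groups in CD8, 0.67 in B cell and 0.88 in CD4 libraries of the same mice. Whether reads of near-identical copies enter the peaks of Sfi1 was not tested.

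Ptprd, a receptor tyrosine phosphatase gene, had 62.7, 49.1 and 34.2 CPM at day 0 and 128, 147 and 187 CPM in the D7_CL mice, without overlap. Its change was 1.50 ± 0.23 at D7_CL (adjusted p = 1.13e-06) and 1.44 ± 0.25 at D1_C (adjusted p = 6.12e-05, edgeR), where the mice had 64.1, 108 and 198 CPM. Without D1_C mouse 3 the D1_C change was 0.78 and did not pass. The same fit gave 1.80 at D7_CL (adjusted p = 9.94e-13) and 1.74 at D1_C (adjusted p = 4.22e-10) in B cell libraries, and 0.81 and 0.83 in CD4 libraries, which did not pass (adjusted p = 0.273 and 0.606, edgeR). The difference between kinds of nuclei was not tested. D1_CL mouse 3 had 0 CPM, in the library of 28677 counts. Atp10a, which encodes a phospholipid flippase, had 232 to 269 CPM at day 0 and rose by 0.49 ± 0.11 over the cold groups (adjusted p = 0.029, edgeR). All 9 cold mice, at 288 to 440 CPM, were above the day 0 mice, and 7 of 8 CL libraries were, the exception being the sparse D1_CL mouse 3 at 199 CPM. It also rose over the CL groups (0.57 ± 0.11, adjusted p = 0.00544), at D1_CL (0.70, adjusted p = 0.0174) and at D7_CL (0.65 ± 0.13, adjusted p = 0.00304, all by edgeR). Leaving out 1 mouse at a time, it passed over the CL groups in 17 of 20 fits and at D7_CL in 18, where the change was 0.38 without D7_CL mouse 1. The third gene over the cold groups besides Sfi1 and Atp10a was Ptprd (1.02, adjusted p = 0.00578 by edgeR). Leaving out 1 mouse at a time, Atp10a passed there in 13 of 20 fits, Ptprd in 17 and Sfi1 in 19. At D1_C, Nav3 (1.57) and Ptprm (1.91) also rose, with means of 11.1 and 7.35 counts per library, beside 1.97 and 2.14 in B cell libraries.

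**Figure D5:**
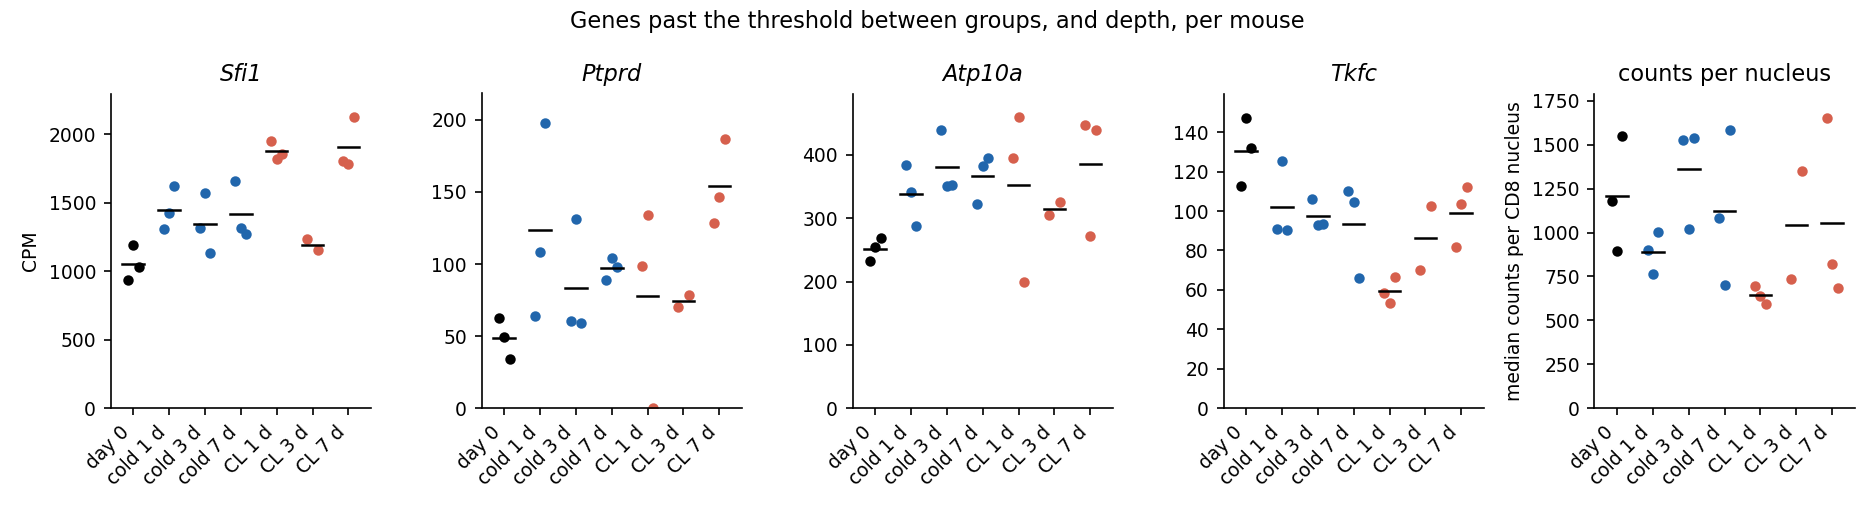
Levels in CPM per mouse for Sfi1, Ptprd, Atp10a and Tkfc, and the median number of counts per CD8 nucleus, by group. Points are mice and lines are group means; Sfi1 is above day 0 in every D1_CL and D7_CL mouse, Tkfc is lowest at D1_CL, and the D1_CL group also has the lowest mean of counts per nucleus.

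At D1_CL, Tkfc fell. It encodes a kinase of triose metabolism, and had 113, 147 and 132 CPM at day 0 and 58.7, 53.5 and 66.4 CPM at D1_CL. The change was −1.14 ± 0.27 (SE) on the log2 scale (adjusted p = 0.029, edgeR). Ddb1, of the DNA damage-binding ubiquitin ligase, fell by 1.44, and both genes use the same promoter peaks, so they are not independent. Aloxe3, a lipoxygenase family member, fell by 1.11 (123 to 61.3 mean CPM) and Atp8b4 by 0.67 (391 to 243). Il6ra, the receptor for IL-6, fell by 0.62 from 495, 677 and 555 CPM to 352, 402 and 232 CPM (adjusted p = 0.0175, edgeR). Fam117a and Grap2, an adaptor of the T cell receptor pathway, fell by 0.60 and 0.56. Those that rose besides Sfi1 and Atp10a were Macrod2 (0.96), Gm28557 (1.03), Immp2l (0.72), Adarb2 (0.78), Plcb4 (1.43) and C130026I21Rik (1.90). With the replicate block, C130026I21Rik had a change of 1.74 and did not pass (adjusted p = 0.0776, edgeR). The D1_CL group had the lowest mean of counts per nucleus. With only nuclei of at least 1000 counts, D1_CL mouse 3, with 9 such nuclei, fell out, so that D1_CL had n = 2, and 1 gene passed at D1_CL. Leaving out that mouse alone left 14 genes. With the deeper nuclei the changes of all 15 kept their sign, and 13 had at least 75% of their size. The deeper nuclei are part of the libraries in which the 15 were called, so this is no independent check. The part of depth in these changes was not tested. Tkfc was at −1.01 and Ddb1 at −1.38, while Adarb2 (0.47) and Aloxe3 (−0.68) were the most reduced. DESeq2 also passed 1, with changes of 0.963 to 1.08 times those of edgeR. Leaving out D1_CL mouse 1 left 1 gene and leaving out day 0 mouse 3 left 3.

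Gm47283, annotated on chromosome Y, rose by 1.00 ± 0.20 at D7_CL, where its 3 mice had 168 to 177 CPM against 60.6 to 105 at day 0 (adjusted p = 0.00304, edgeR). By DESeq2 its change was 0.94 ± 0.61 (SE) and did not pass. Other libraries ran from 10.2 CPM in D3_C mouse 3 to 216 CPM in D3_CL mouse 1. Fpr3, a formyl peptide receptor gene, rose by 1.48. Over the CL groups, Uchl3, a deubiquitinase, rose by 0.82 from 44.2 to 70.9 CPM at day 0 to 33.2 to 130 CPM, and Gm28557 by 0.85. Besides Atp10a, Sfi1 and Ptprd, the remaining genes over the CL groups were Adarb2, App, Igf2bp2, Zfp65, March1, Lsamp and C130026I21Rik, with changes of 0.56 to 1.59. Zfp65, March1, Lsamp and C130026I21Rik had means of 8.65 to 16.7 counts per library. With the replicate block, Uchl3, Adarb2, App and March1 (adjusted p = 0.0503, edgeR) and Zfp65 (adjusted p = 0.0617, edgeR) did not pass. Leaving out 1 mouse at a time, Uchl3 passed in 11 of 20 fits, Zfp65 and March1 in 11, Adarb2 in 10, App, Lsamp and C130026I21Rik in 14, Igf2bp2 in 16 and Gm28557 in 17. Each of these lost its call in some fits without a day 0 or a CL mouse, and without day 0 mouse 3 the changes of App and Igf2bp2 were 0.33 and 0.41. Adarb2, App, Uchl3, Zfp65, March1 and Lsamp also lost it without D1_C mouse 2, a cold mouse outside this contrast. Sfi1 passed in all 20 and Ptprd in 18, failing without day 0 mouse 3 and without D3_CL mouse 3.

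The listed genes gave the same picture. Of 252 genes on 22 lists, 181 were tested between groups, and 1 of these (0.552%), Il6ra, was called in a contrast against day 0. Over all genes 26 of 10375 (0.251%) were, and 1 gene is too few to set the lists apart. The median change over the CL groups was −0.04 for the 20 T cell receptor genes, −0.14 for the 10 effector genes tested and −0.0028 for the 11 adrenergic and glucocorticoid genes, against −0.02 over all genes. Over the cold groups these medians were 0.03, −0.09 and −0.03, against −0.01. The F test over all groups also passed Pax5, the B cell lineage factor (adjusted p = 0.0204, edgeR). The summed B cell list varied between CD8 libraries, at 321 and 812 CPM in the 2 D3_CL mice, 495 to 559 CPM at day 0 and 346 to 406 CPM at D7_C, and its part in that call was not tested.

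Single peaks were tested in the same way. Of 14368 peaks, 1 passed over the cold and 1 over the CL groups (0.00696% and 0.00696%). By DESeq2 their changes were 1.09 and 0.88, and with no filter 1.02 and 0.73, and neither passed. Each call was also lost without some single mice. By day, 1 rose at D1_C (0.00696%), 3 at D1_CL (0.0209%) and 2 at D7_CL (0.0139%). At D3_C, D7_C and D3_CL 0 passed by edgeR or DESeq2 (0.0% each), with 695, 948 and 732 of the 14368 at an unadjusted p under 0.05. The F test over all groups passed 11 (0.0766%), of which 5 lie within Sfi1, and the single-day calls were of 3 peaks. The first, chrX:143482906-143483205, lies outside any gene. It had 38.2 to 57.6 CPM at day 0 and 58.3 to 174 CPM in the 9 cold mice, all of them above day 0, a change of 1.09 ± 0.22 (adjusted p = 0.0174, edgeR). In the CL libraries it had 39.7 to 162 CPM and did not pass over the 3 days (0.93, adjusted p = 0.245), but rose at D1_CL (1.55 ± 0.29, adjusted p = 0.00253) and D7_CL (1.27 ± 0.26, adjusted p = 0.0166), as at D1_C (1.51 ± 0.27, adjusted p = 0.000462, all by edgeR). The second, chr11:3145720-3146572, lies within the Sfi1 gene. It had 82.3 to 102 CPM at day 0 and 115 to 241 CPM in the 8 CL libraries, all above day 0, and rose by 0.89 ± 0.18 (adjusted p = 0.0263, edgeR). It passed at D1_CL (1.10) and D7_CL (1.13) as well. Over the cold groups it had 77.6 to 194 CPM (0.71, adjusted p = 0.371). The third, chr11:3179307-3179866, also within Sfi1, had 19.1 to 21.9 CPM at day 0 and 91.7, 73.8 and 39.7 CPM at D1_CL, a change of 1.96 ± 0.44 (adjusted p = 0.0355, edgeR) at a mean of 8.5 counts per library. With the replicate block its adjusted p was 0.0758. Without nuclei of shared barcode sequences the changes of the first peak over the cold groups and of the second over the CL groups were nearly as large, at 1.03 and 0.86, with adjusted p-values of 0.276 and 0.0997.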

How the data were processed

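Nuclei of iWAT were barcoded by combinatorial indexing and sequenced in 4 lanes that each held nuclei of all mice. The authors aligned reads to mm10 with Bowtie2 and SAMtools, discarded mapping qualities under 30 as well as duplicate and mitochondrial reads, called peaks with MACS2 per initial cluster and merged them, removed doublets with Scrublet and clustered nuclei with Signac. The deposited counts are a binary matrix of 189598 peaks by 32552 nuclei, in which a nucleus with 1 read in a peak cannot be told from one with several. Mouse, group and cluster of each nucleus were taken from the deposited metadata. No further filter on nuclei was applied.

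The members and the gene lists were chosen with earlier results of these data known. Of 21951 protein-coding genes of GENCODE vM21, 17196 had a peak in the body or 2000 bases upstream. Levels between kinds of nuclei use TMM factors over libraries of all kinds, and levels between groups those over the CD8 libraries. Differences between kinds are log2 CPM with a prior count of 2, paired by mouse. The filter for them ran over CD8, B cell, myeloid and non-immune libraries, without CD4 and remaining T cell libraries. Groups were compared with edgeR 4.0.16 (quasi-likelihood, Benjamini-Hochberg threshold 0.05) in R 4.3.3, in 1 fit over all 20 libraries, which share the day 0 mice. DESeq2 1.42.0 was an alternative. For peaks the single-day and F tests were added after the values were seen. Shares were compared with exact permutation tests (scipy 1.17.1). Simulated data for the 10375 genes had a common spread for all genes and the same change in every treated group. Among 2-fold changed genes that passed the filter, the step called 85.7% over the CL groups and 90.1% over the cold groups. In a single-day contrast (D7_C) it called 73.6%. False calls were 6, 8 and 8 in the same order. The simulation left out differences in spread between genes, so its rates may not hold for the real libraries. Named were 47 listed genes, for each kind of nuclei the 3 genes with the largest difference each way, and for each group contrast the 3 genes past the threshold with the largest change each way and a mean of at least 20 counts, or else the gene with the smallest p. Peaks named were those at Cd8a and Cd8b1 and the 5 with the largest differences. Other genes and peaks were chosen after their values were seen. Some genes are not reported here. Other settings tried were promoter peaks alone, keeping all low-count genes, nuclei of at least 1000 counts, each mouse left out and the replicate number as a block.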

Additional observations from a re-analysis of the deposited data

How the results depend on the processing

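CD8 libraries were uneven, the smallest of those tested holding 33 nuclei and 28677 counts. With libraries of at least 100 nuclei only, a setting chosen after seeing the data, 14 genes passed at D1_CL and 11 over the CL groups. Of 494 alternatives for 18 named gene changes, 397 kept direction and threshold, 97 lost the threshold and 0 reversed; of the 360 that left out 1 mouse, 309 kept both. DESeq2 passed 0 genes at D1_C, 0 at D7_C and 0 over the cold groups, and 1 each at D1_CL, at D7_CL, over the CL groups and in the F test. Promoter peaks alone gave 0 genes in each of these. Nuclei of at least 1000 counts, a setting that also leaves out D1_CL mouse 3, gave 1 gene at D1_C, 0 at D7_C, 1 at D1_CL, 2 at D7_CL, 0 over the cold groups, 5 over the CL groups and 8 in the F test. Without shared barcode sequences, a setting chosen after seeing the data, 7 genes passed at D1_CL and 7 in the F test, and with no filter 8 in the F test. In each single-day or mean contrast with a peak call, 0 peaks were left with no filter and with DESeq2. Of the 11 in the F test, DESeq2 passed 1, no filter 0 and the replicate block 7. Without shared barcode sequences 0 were left over the cold or CL groups, 1 at D1_CL and 4 in the F test. The changes of the peaks called over the cold and CL groups, 1.09 and 0.89, were 1.09 and 0.88 by DESeq2, 1.03 and 0.86 without shared barcode sequences and 1.02 and 0.73 with no filter. The causes were not tested.

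Deviations of same-numbered mice from their group means correlated with a median of 0.0025 over 57 pairs (−0.046 to 0.067). For mice of different numbers the median was −4.2e-05 over 114 pairs. The counts are sparse, so these values cannot show whether replicate numbers paired the mice. With the replicate block, 7 genes passed over the CL groups, where Uchl3, Adarb2, App and March1 had an adjusted p of 0.0503 (edgeR) and Zfp65 of 0.0617. Leaving out 1 mouse at a time, the number of genes ranged from 0 to 6 at D1_C, 0 to 1 at D3_C, 0 to 2 at D7_C, 1 to 19 at D1_CL, 0 to 1 at D3_CL, 2 to 7 at D7_CL, 1 to 4 over the cold groups, 4 to 13 over the CL groups and 6 to 17 in the F test. Peak counts ranged from 0 to 1 over the cold and over the CL groups, 0 to 2 at D1_C, 0 to 4 at D1_CL, 0 to 3 at D7_CL and 7 to 13 in the F test. They were 0 at D1_CL without D1_CL mouse 1, D1_CL mouse 2 or day 0 mouse 3, 0 at D7_CL without day 0 mouse 1, and 0 at D1_C without D1_C mouse 3 or day 0 mouse 3. Over the cold groups they were 0 without day 0 mouse 1 or 3, D1_C mouse 3, D3_C mouse 3 or D7_C mouse 1. Over the CL groups they were 0 without day 0 mouse 1 or 3, D1_CL mouse 1, D3_CL mouse 1 or 3, or D7_CL mouse 1. For genes, the lowest counts were reached without D1_C mouse 3 at D1_C, D1_CL mouse 1 at D1_CL, day 0 mouse 1 or D7_CL mouse 1 at D7_CL, and day 0 mouse 1 over the CL groups.

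None of the share differences passed a test. Leaving out 1 mouse, cold minus day 0 ranged from −2.07 to −0.0039 and CL minus day 0 from −3.93 to −1.23 percentage points of all nuclei, and CL minus cold from −2.69 to 0.143 of all nuclei, −0.241 to 1.04 of T cell nuclei and −1.48 to 1.79 of lymphocyte nuclei, and CL minus day 0 from −2.38 to 0.102 of lymphocyte nuclei. The ends at 0.143, 1.79 and 0.102 were those without D3_CL mouse 2. With nuclei of at least 1000 counts, T cell shares reversed, to −2.46 for CL minus day 0 and −4.79 for CL minus cold, and the lymphocyte share to −0.363 for CL minus cold. That last was −0.235 without shared barcode sequences.

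Counts of genes fell with promoter peaks only, to 227 higher and 282 lower than in B cell, 174 and 199 than in myeloid and 457 and 1198 than in non-immune nuclei. With the same direction asked in 90% of mice, 824 genes were higher and 1293 lower than in myeloid nuclei. Peaks then numbered 1763 higher than in B cell, 2409 higher and 1416 lower than in myeloid, and 3559 higher than in non-immune nuclei. In the central 200 bases the motif shares fell to 19.2% for ETS (12.0% of all peaks), 20.6% for RUNX (6.35%), 6.71% for TCF7 and LEF1 (1.94%), 19.1% for CAGGTG (14.1%), 13.9% for CAGCTG (13.3%) and 4.96% for T-box (2.73%). They were 7.43% for AP-1 (4.35%), 3.06% for GATA (1.48%), 7.58% for C/EBP (6.66%), 9.77% for NR3C (4.76%) and 9.91% for IRF (6.22%). The shares over all peaks thus fell as well, as fewer bases hold fewer matches.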
